A study of Homo sapiens with 6 samples.

Results

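Levels of 10 integrin alpha chain genes were compared between THP-1 cells differentiated with PMA and unstimulated THP-1 cells. The 10 genes were chosen by name, with earlier results of these data known, from a family of 18 human alpha chains. The 10 stand among 18417 genes tested. They are ITGA2, ITGA3, ITGA4, ITGA5, ITGA6 and ITGAV, whose receptors bind extracellular matrix, ITGAL, ITGAM and ITGAX, which pair with the leukocyte beta-2 chain, and ITGAE, which pairs with beta-7. THP-1 is a human line grown from a monocytic leukaemia, and PMA, a phorbol ester, acts on such cells through protein kinase C. The comparison sets 3 arrays of THP-1 cells that had 3 days of 200 nM PMA followed by 3 days of rest in medium free of it against 3 arrays of unstimulated THP-1 cells. The labels do not say whether those cells received a vehicle or were kept in culture for the same time. Both groups are the same cell line, so the data describe 1 leukaemia line and not blood monocytes or tissue macrophages.

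Integrins are transmembrane receptors made of 1 alpha and 1 beta chain, and the alpha chain largely sets which ligand is bound. A cell switches them on from inside, when talin and kindlin bind the tail of the beta chain, and bound integrins then recruit kinases and actin linkers to the adhesion site. In leukocytes the beta-2 integrins carry adhesion to endothelium and uptake of complement-coated particles, while matrix-binding chains anchor cells that have left the blood.

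The median log2 value of an array was 6.10 to 6.17 on PMA arrays and 6.20 to 6.25 on unstimulated arrays. Within a group, arrays correlated at a Pearson r of 0.988 to 0.995, and between groups at 0.958 to 0.968. The arrays with the lowest mean correlation with their own group were PMA replicate 3 (0.989) and unstimulated replicate 1 (0.989), against 0.991 to 0.992 for the other arrays, so values without them are given where they matter. The labels do not say that replicates are separate cultures, so the spread behind each p-value may be technical. With limma and Benjamini-Hochberg adjustment over all genes, 26.4% of genes were called at the 0.05 threshold, of which 13.2% of all genes were higher with PMA and 13.2% lower. Higher genes made up 50.1% of those called, and 61.8% when each array was centred on its median. Of 8 monocytic markers of the line measured, 7 lay above the array median on every array. Among them were LYZ, CD68, CD14, CSF1R and the myeloid factor SPI1, while MPO was 4.63 to 5.12 on PMA arrays. In log2 change, PMA minus unstimulated, 2 of the 8 rose, CD14 (2.46) and CSF1R (1.94). The 4 that fell were AZU1 (−4.86), ELANE (−4.85), LYZ (−2.76) and MPO (−1.10). CD14 was 7.51 on unstimulated replicate 1 and 9.67 and 9.65 on the other unstimulated arrays, so the size of its rise leans on that array. Of 7 macrophage markers measured, 5 rose with PMA and none fell. Their summed linear level was 4314 to 12047 on PMA arrays and 612 to 1031 on unstimulated arrays.

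Every member was read by 1 probe set that named no other gene, and no member lay below an array's lower quartile on any array. Promoter windows from RefSeq (GRCh38.p14, 250 bases before to 50 after an annotated start) were matched for 7 of the 10 genes, in 9 windows. They were searched on both strands for TGANTCA, the letters bound by AP-1 factors, GGGCGG, those bound by Sp1, and GAGGAAG, a core bound by the myeloid factor PU.1, and within a window no match overlapped another. TGANTCA was found in 1 of the 9 windows, at ITGA5, and in 7.71% of all 35116 windows of the same length. GGGCGG was found in 5 of the 9, at ITGA2, ITGA5, ITGA6 and ITGAM, which are 4 of the 7 genes, and in 44.95% of all windows. The median GC content was 69.3% in the 9 windows and 58.7% in all windows, so the 2 shares are not matched for GC. The 2 windows of ITGA6 share 50 bases and 1 GGGCGG match, the only one of its first window, so that match is counted in both. GAGGAAG was found in 3 of the 9, at ITGAV, ITGAM and ITGAE, and in 13.6% of all. These matches describe letters in a window and not bound sites. ITGA3, ITGAL and ITGAX had no window and were not searched. The windows printed are those of the member window with most GGGCGG matches (ITGA2, + strand, chr5:52989102-52989401), the chain with the AP-1 letters (ITGA5, − strand, chr12:54419217-54419516), a beta-2 partner (ITGAM, + strand, chr16:31259725-31260024) and the matrix-binding chain whose level did not pass the test (ITGA4, + strand, chr2:181457136-181457435), 5′ to 3′, with matches in capitals.
ITGA2: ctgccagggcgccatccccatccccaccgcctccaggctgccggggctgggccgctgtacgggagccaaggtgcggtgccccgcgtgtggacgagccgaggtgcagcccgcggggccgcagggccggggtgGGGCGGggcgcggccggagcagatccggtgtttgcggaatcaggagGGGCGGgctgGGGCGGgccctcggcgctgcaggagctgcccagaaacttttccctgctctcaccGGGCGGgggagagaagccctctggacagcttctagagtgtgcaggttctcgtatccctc
ITGA5: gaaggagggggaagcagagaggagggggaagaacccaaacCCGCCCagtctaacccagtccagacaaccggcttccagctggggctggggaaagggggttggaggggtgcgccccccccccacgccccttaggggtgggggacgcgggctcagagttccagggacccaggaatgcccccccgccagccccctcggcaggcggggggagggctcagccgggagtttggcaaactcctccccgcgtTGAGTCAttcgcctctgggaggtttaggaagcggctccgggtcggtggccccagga
ITGAM: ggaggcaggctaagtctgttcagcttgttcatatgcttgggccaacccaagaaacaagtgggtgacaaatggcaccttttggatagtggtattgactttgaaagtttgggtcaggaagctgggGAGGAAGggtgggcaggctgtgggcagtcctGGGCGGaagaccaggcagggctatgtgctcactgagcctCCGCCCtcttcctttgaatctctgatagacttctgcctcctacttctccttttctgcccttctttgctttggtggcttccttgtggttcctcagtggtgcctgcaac
ITGA4: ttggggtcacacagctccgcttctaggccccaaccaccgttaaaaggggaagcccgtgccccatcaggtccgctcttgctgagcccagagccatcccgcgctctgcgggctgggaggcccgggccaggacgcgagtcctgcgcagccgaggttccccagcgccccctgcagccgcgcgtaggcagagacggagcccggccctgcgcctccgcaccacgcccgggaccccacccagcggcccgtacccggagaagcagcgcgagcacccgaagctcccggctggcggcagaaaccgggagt
ITGA2 holds 4 copies of GGGCGG, first bases at −119, −73, −63 and −9 from the start. In ITGA5 TGAGTCA begins at −6, and in ITGAM GAGGAAG begins at −127 with GGGCGG at −96 and its reverse complement at −57. The ITGA4 window holds none of the 3 motifs.

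The comparison asked which alpha chains differ between PMA-treated and unstimulated THP-1 cells. Of the 10 members, 7 rose, 1 fell and 2 did not pass, so 8 were called where the background over all genes was 26.4%. All 8 changed at least 2-fold, which 8.37% of all genes did while called. The groups of arrays did not overlap for the same 8 members, against 41.2% of all genes. The median log2 fold change of the 10 was 1.68, against −0.03 over all genes tested. In the following, a fold change is PMA minus unstimulated on the log2 scale, ± its standard error in the limma fit (n = 3 arrays per group), and the p is adjusted over all genes. RNA came from whole cultures, so a change in the number of cells that express a gene and a change in RNA per cell cannot be told apart.

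The matrix-binding chains among the members mostly rose. Of the 6, 5 rose and 1 did not pass, and their median log2 fold change was 1.86. Matrix receptor chains outside the members, such as ITGA11 (0.90) and ITGA7 (−0.74), were not counted. The largest change was that of ITGA3, the alpha chain of a laminin receptor of epithelium. Its log2 values were 11.17, 10.42 and 10.26 on PMA arrays 1 to 3, against 5.86, 6.09 and 5.76 on unstimulated arrays 1 to 3. All PMA arrays lay above 10, and all unstimulated arrays below their array's median. The difference was 4.71 ± 0.23 (adjusted p = 1.05e-05), a 26.2-fold rise that ranked 19 from the largest among the 18417 genes.

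ITGA6, the alpha chain of the other main laminin receptors, had log2 values of 9.36, 9.30 and 8.64 on PMA arrays, against 7.08, 6.54 and 6.64 on unstimulated arrays. The lowest PMA array, replicate 3, was still above every unstimulated array. The rise was 2.35 ± 0.22 (adjusted p = 0.00023). ITGA2, the alpha chain of a collagen and laminin receptor of platelets and epithelium, had log2 values of 8.52, 8.27 and 8.37 on PMA arrays, against 6.35, 6.20 and 6.39 on unstimulated arrays. Replicates lay close together in both groups, with SDs of 0.12 in PMA and 0.10 in unstimulated arrays. It rose by 2.07 ± 0.10 (adjusted p = 1.24e-05).

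ITGAV, the alpha chain of vitronectin receptors that recognise the RGD motif of matrix proteins, had log2 values of 9.89, 10.06 and 10.11 on PMA arrays, against 8.17, 8.34 and 8.58 on unstimulated arrays. The groups were well apart and the spread was small. The rise was 1.66 ± 0.13 (adjusted p = 8.37e-05). ITGA5, the alpha chain of the classical fibronectin receptor, had log2 values of 11.86, 11.79 and 11.22 on PMA arrays, against 10.52, 10.37 and 10.41 on unstimulated arrays. It was the smallest rise among the matrix-binding members that passed (1.18 ± 0.17, adjusted p = 0.0018). It did not pass when tested against a 1.5-fold change (adjusted p = 0.062).

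ITGA4 stood apart from the other matrix-binding chains among the members. It encodes the alpha chain of VLA-4, which binds fibronectin and the endothelial ligand VCAM1 and is a chain of circulating leukocytes. Its log2 values were 9.31, 9.36 and 10.27 on PMA arrays, against 9.98, 9.91 and 10.07 on unstimulated arrays. PMA replicates 1 and 2 lay below every unstimulated array and PMA replicate 3 above all of them, so the groups overlapped. The difference of −0.34 ± 0.24 did not pass (adjusted p = 0.372), with a 95% interval of −0.90 to 0.22. Without PMA replicate 3 it was −0.65 and passed (adjusted p = 0.0028).

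**Figure D1:**
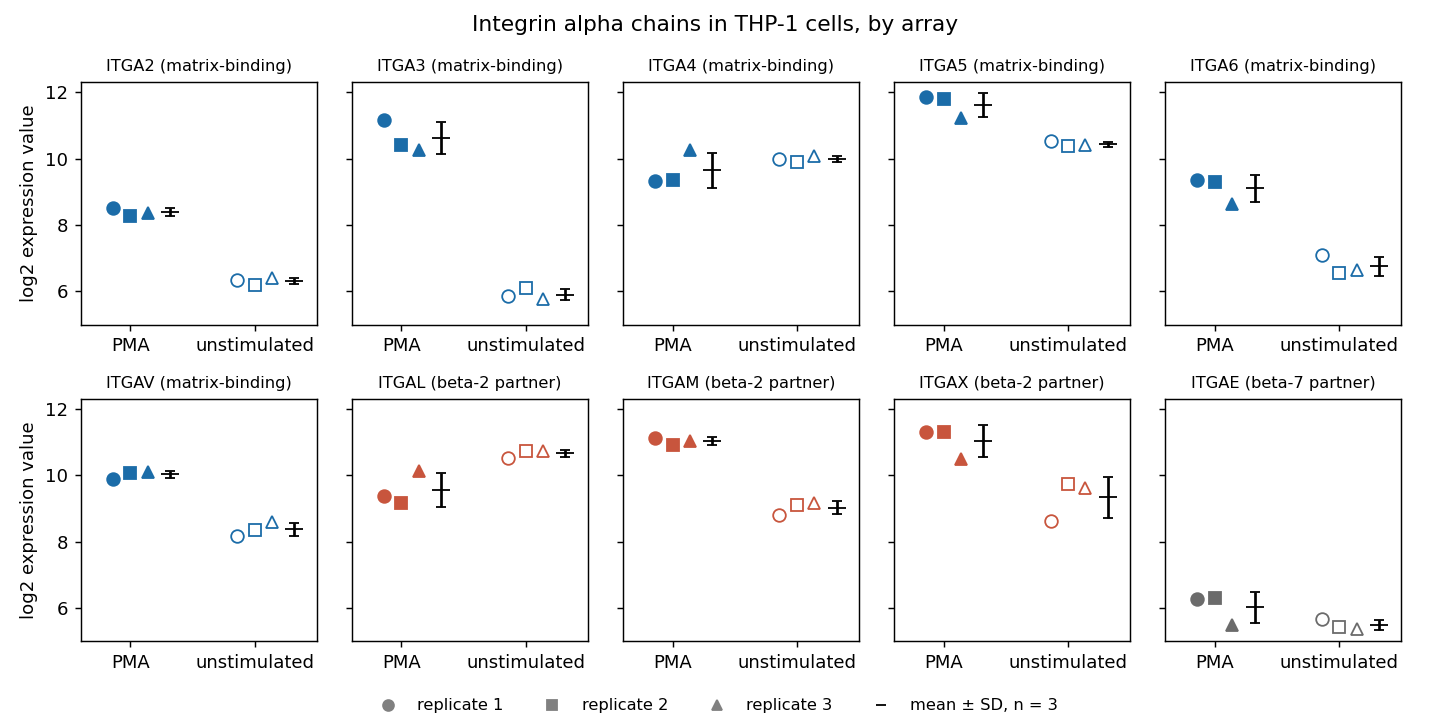
Log2 expression value (y axis) of the 10 integrin alpha chains in each of 3 PMA arrays (filled) and 3 unstimulated arrays (open), 1 panel per gene, with marker shape for the replicate number and a bar for mean ± SD (n = 3). PMA arrays of ITGA3 sit between 10.26 and 11.17, all above its unstimulated arrays, while ITGA4 and ITGAE overlap between groups through PMA replicate 3.

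The beta-2 partner chains did not move together. ITGAM encodes CD11b, the alpha chain of complement receptor Mac-1, and its log2 values were 11.14, 10.91 and 11.03 on PMA arrays, against 8.79, 9.11 and 9.15 on unstimulated arrays. The PMA arrays agreed closely (SD 0.11), and the 2.01 ± 0.12 rise was 4.02-fold (adjusted p = 3.17e-05). ITGAX encodes CD11c, the alpha chain of a related complement receptor of macrophages and dendritic cells, and had log2 values of 11.31, 11.29 and 10.48 on PMA arrays, against 8.62, 9.75 and 9.63 on unstimulated arrays. PMA replicate 3 was the lowest PMA array and unstimulated replicate 1 the lowest unstimulated array, so both groups were wide, yet they did not overlap. The rise was 1.70 ± 0.33 (adjusted p = 0.0077). It was 1.34 without unstimulated replicate 1, 1.97 without PMA replicate 3 and 1.62 without both of those arrays. The rise did not pass in a gene-wise model without shared variance (adjusted p = 0.0859) or against a 1.5-fold change (0.080).

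ITGAL went the other way. It encodes CD11a, the alpha chain of LFA-1, which binds ICAM ligands and is used by lymphocytes and monocytes in adhesion to other cells. Its log2 values were 9.38, 9.16 and 10.12 on PMA arrays, against 10.52, 10.72 and 10.73 on unstimulated arrays. Every PMA array lay below every unstimulated array, with PMA replicate 3 the nearest. It fell by 1.10 ± 0.23 on the log2 scale (adjusted p = 0.0098), and without PMA replicate 3 by 1.39. The call was lost in the gene-wise model without shared variance (adjusted p = 0.0899) and against a 1.5-fold change (0.2998).

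ITGAE encodes CD103, the alpha chain that pairs with beta-7 to bind E-cadherin and is known from T cells and dendritic cells of epithelia. Its log2 values were 6.27, 6.30 and 5.47 on PMA arrays, against 5.66, 5.42 and 5.37 on unstimulated arrays. PMA replicates 1 and 2 lay above all unstimulated arrays, and PMA replicate 3 lay among them. The difference of 0.53 ± 0.22 did not pass (adjusted p = 0.122), with a 95% interval of 0.02 to 1.05. Without PMA replicate 3 it was 0.81 and passed (adjusted p = 0.0020). ITGAE was below the array median on 4 of the 6 arrays.

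Set side by side, the matrix-binding members and the beta-2 partner members had medians of similar size. The matrix-binding chains spanned −0.34 to 4.71 with a median of 1.86, and the beta-2 partners spanned −1.10 to 2.01 with a median of 1.70. The beta-2 median is the value of ITGAX, the middle of 3, and ITGAD (0.86), also a beta-2 partner, was not counted. The difference of the medians was 0.17. On single PMA arrays, each set against the unstimulated mean, it was −0.12, −0.07 and 0.67 for replicates 1 to 3. Its sign therefore varied between arrays. The difference was −0.13 without PMA replicate 3, −0.08 without unstimulated replicate 2 and 0.48 without unstimulated replicate 1. No test was made of it, since the members were chosen. In the order of change, the 95% interval of ITGA3 (4.18 to 5.24) did not touch that of any other member. Those of ITGA6 (1.84 to 2.85), ITGA2 (1.83 to 2.31), ITGAM (1.72 to 2.29), ITGAX (0.92 to 2.47) and ITGAV (1.36 to 1.95) overlapped each other, so no order is given for them. ITGAL had an interval wholly below 0 (−1.63 to −0.57).

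**Figure D2:**
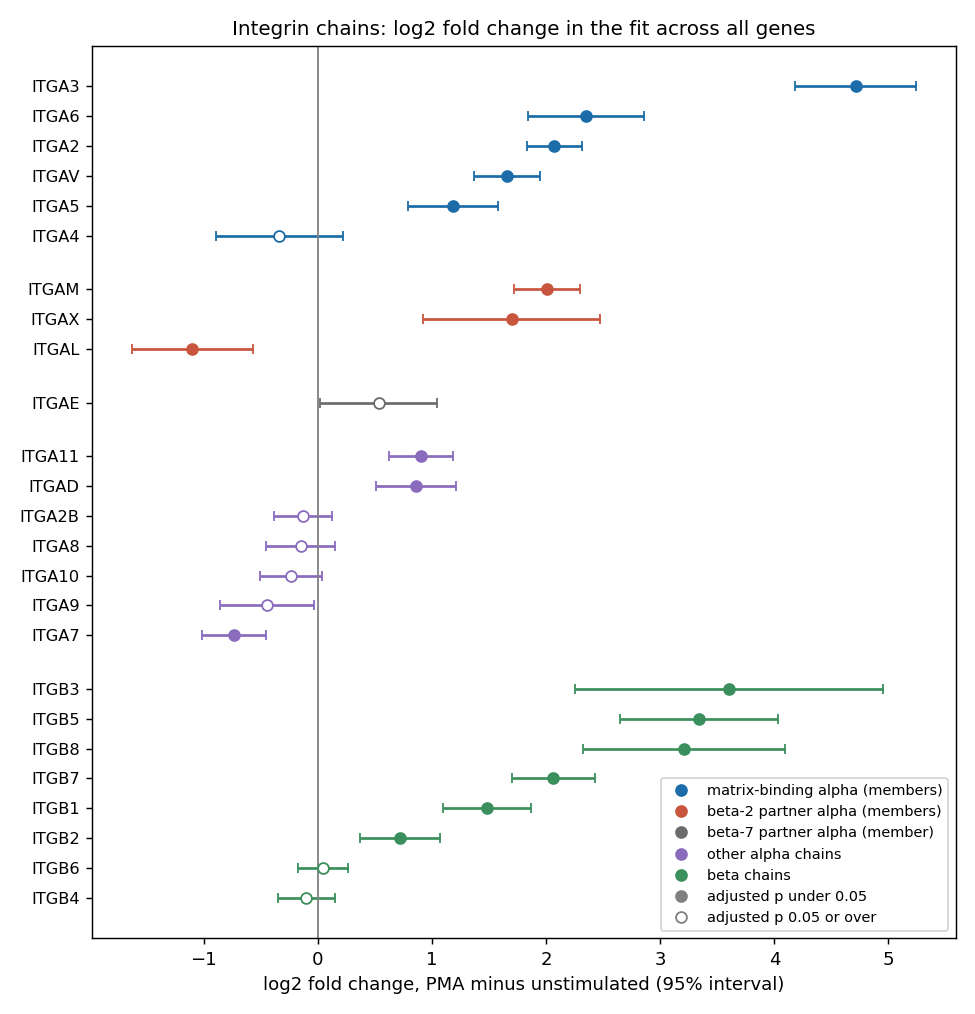
Log2 fold change, PMA minus unstimulated, with its 95% interval (x axis) for the members by class, the other alpha chains measured and the beta chains (y axis), with filled points for an adjusted p under 0.05 in limma. ITGA3 at 4.71 lies apart from the other members, ITGAL at −1.10 is the member that fell, and ITGA4 and ITGAE are open points.

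PMA replicate 3 stood nearest to the unstimulated arrays for most members. For 7 of the 10 (ITGA3, ITGA4, ITGA5, ITGA6, ITGAL, ITGAX and ITGAE) it was the PMA array nearest to the unstimulated side, as it was for 50% of the 4854 genes called. Relative to the mean of the other PMA arrays it was lower by the log2 differences of −0.82 for ITGAX, −0.81 for ITGAE, −0.69 for ITGA6, −0.60 for ITGA5 and −0.54 for ITGA3. It was higher by 0.93 for ITGA4 and 0.85 for ITGAL, which were the members with the negative differences. ITGA2 (−0.02), ITGAM (0.00) and ITGAV (0.13) hardly moved on that array. Without it 8 members were higher and 2 lower, and with it 7 and 1. On the other side, unstimulated replicate 1 was lower than the mean of the other unstimulated arrays by the difference of −1.07 for ITGAX and higher by 0.49 for ITGA6.

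**Figure D3:**
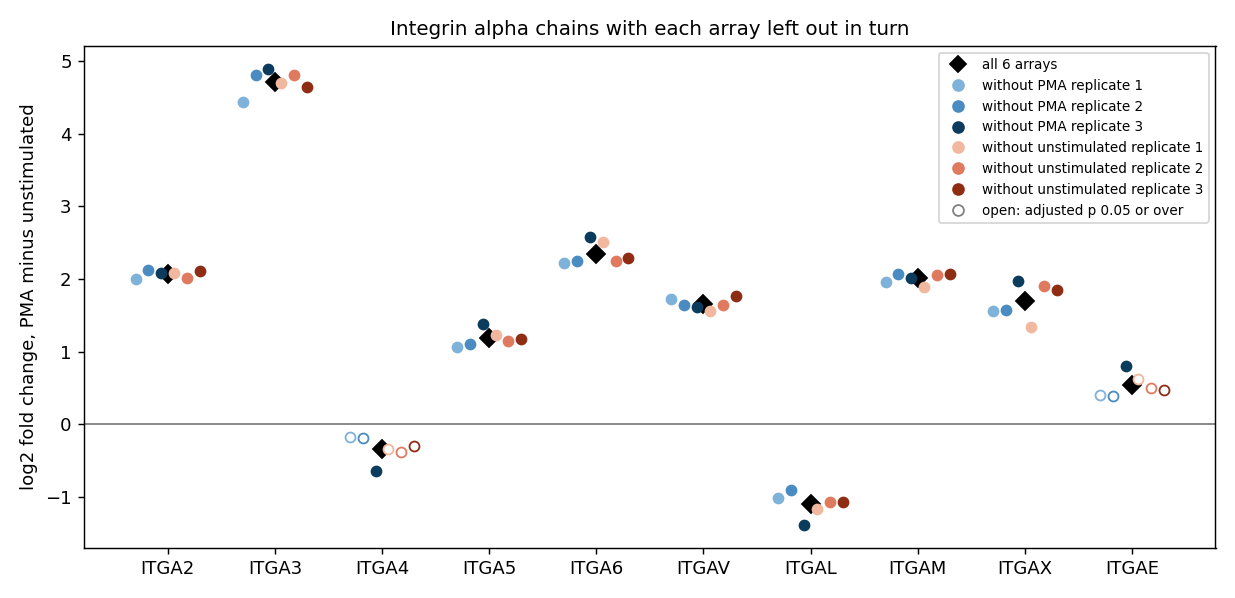
Log2 fold change, PMA minus unstimulated (y axis), of each member (x axis) from all 6 arrays (diamond) and with each array left out in turn (circles, open where the adjusted p was 0.05 or over). Without PMA replicate 3, ITGA4 fell to −0.65 and ITGAE reached 0.81 and both passed, while the 8 members called from all arrays stayed called in each of the 6 fits.

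The remaining alpha chains changed less than the members that were called. Of the 7 others measured alone, 2 rose and 1 fell, where 13.2% of all genes rose and 13.2% fell, and none was both called and changed 2-fold, where 8.37% of all genes were. The median log2 fold change of the 7 was −0.15. ITGAD, the fourth beta-2 partner, had log2 values of 6.65, 6.34 and 6.84 on PMA arrays, against 5.56, 5.91 and 5.78 on unstimulated arrays, a rise of 0.86 ± 0.15 (adjusted p = 0.0048). ITGA11, a collagen receptor chain of mesenchymal cells, rose by 0.90 ± 0.12 (adjusted p = 0.0014). ITGA7, a laminin receptor chain of muscle, fell by 0.74 ± 0.12 (adjusted p = 0.0033). ITGA9 (−0.45 ± 0.18), ITGA10 (−0.24 ± 0.12), ITGA8 (−0.15 ± 0.13) and the platelet chain ITGA2B (−0.13 ± 0.11) did not pass, and ITGA8 lay below the lower quartile on all 6 arrays. Without PMA replicate 3, ITGA9 passed at −0.67 (adjusted p = 0.0017).

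In the gene table of GRCh38.p14, ITGAM, ITGAX and ITGAD follow each other on chromosome 16 as neighbouring measured genes, and all 3 rose. The measured genes that flank them, PYDC1 (−0.13 ± 0.10, adjusted p = 0.417) and COX6A2 (0.14 ± 0.10, adjusted p = 0.362), did not pass. ITGAL lies elsewhere on the same chromosome, between SEPHS2 (−0.07 ± 0.11) and ZNF768 (−0.15 ± 0.11), neither of which passed. ITGAM, ITGAX and ITGAD are similar in sequence, and cross-hybridisation between their probe sets was not tested.

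The beta chains that the members pair with rose in 6 of 8 cases, and none fell, where 26.4% of all genes were called. ITGB1, the common partner of ITGA2, ITGA3, ITGA4, ITGA5 and ITGA6, had log2 values of 9.78, 9.81 and 9.36 on PMA arrays, against 7.89, 8.25 and 8.37 on unstimulated arrays, a rise of 1.48 ± 0.17 (adjusted p = 0.00057). ITGB2, the partner of ITGAL, ITGAM and ITGAX, rose by 0.72 ± 0.15 (adjusted p = 0.0099), while ITGAL fell. Among partners of ITGAV, ITGB3 (3.60 ± 0.58), ITGB5 (3.34 ± 0.30) and ITGB8 (3.21 ± 0.38) rose with adjusted p-values of 0.0031, 0.00019 and 0.00074, and ITGB6 (0.04 ± 0.09) did not pass. ITGB3 was the most uneven, at 8.90, 9.76 and 7.12 on PMA arrays, against 4.80, 5.36 and 4.80 on unstimulated arrays, with no overlap. ITGB8 lay below the lower quartile on 3 arrays, so its fold change may come out too small. ITGB7, the partner of ITGA4 and ITGAE, rose by 2.06 ± 0.16 (adjusted p = 8.37e-05), with log2 values of 11.17, 10.58 and 10.66 on PMA arrays and 8.70, 8.73 and 8.79 on unstimulated arrays. Neither of its alpha partners passed. ITGB4, the hemidesmosome partner of ITGA6, did not pass (−0.10 ± 0.11).

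Ligands of these receptors were counted from lists of matrix and cell-surface genes. Of 26 matrix ligands measured, 8 rose, 2 fell and 16 did not pass, with a median log2 fold change of 0.03, where 26.4% of all genes were called and 13.2% rose. FN1, fibronectin and the ligand of the ITGA5 and ITGA4 receptors, had log2 values of 13.13, 13.01 and 11.93 on PMA arrays, against 6.14, 6.08 and 6.02 on unstimulated arrays (6.61 ± 0.29, adjusted p = 7.52e-06). Thrombospondin THBS1 rose by 3.51 ± 0.15 (adjusted p = 6.03e-06) and the basement membrane collagen COL4A2 by 2.03 ± 0.15 (adjusted p = 6.74e-05). The proteoglycan VCAN fell by 2.89 ± 0.40 (adjusted p = 0.0015). Of 14 cell-surface ligands, 4 rose and 1 fell, against the same background. ICAM1, a ligand of the ITGAL and ITGAM receptors, had log2 values of 11.24, 11.12 and 10.54 on PMA arrays, against 6.11, 6.998 and 7.11 on unstimulated arrays (4.22 ± 0.29, adjusted p = 4.93e-05). Junction protein JAM2, a ligand of VLA-4, rose by 2.80 ± 0.36 (adjusted p = 0.0011), and the metalloprotease ADAM9 by 2.73 ± 0.25 (adjusted p = 0.0002). JAM3 (−0.35 ± 0.11, adjusted p = 0.0456) fell, a call that was lost without PMA replicate 1 or 2 or any 1 of the unstimulated arrays (adjusted p between 0.056 and 0.159). VCAM1 (−0.03 ± 0.08, adjusted p = 0.827) and the ITGAE ligand CDH1 (−0.10 ± 0.11, adjusted p = 0.551), named here after their values were seen, did not pass.

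Of 17 genes measured that regulate integrin switching from inside, in either direction, 7 rose, 1 fell and 9 did not pass. Their median was 0.22, where 26.4% of all genes were called and 13.2% rose. The number higher was 4, with 1 lower, without PMA replicate 1 or without unstimulated replicate 2. Those fits also called fewer of the 18417 genes: 3323 (1726 higher) without PMA replicate 1 and 3607 (1789 higher) without unstimulated replicate 2. FERMT2, kindlin-2, had log2 values of 9.14, 9.19 and 9.36 on PMA arrays, against 4.67, 4.54 and 4.96 on unstimulated arrays (4.51 ± 0.13, adjusted p = 1.30e-06). Unstimulated values lay near the lower quartile of the arrays (4.46 to 4.57), so its fold change may come out too small as well. The leukocyte kindlin FERMT3 rose by 1.24 ± 0.11 (adjusted p = 0.00016) and talin TLN1 by 1.04 ± 0.12 (adjusted p = 0.00074). RASGRP2, an exchange factor that activates RAP1 in platelets and leukocytes, fell by 2.32 ± 0.15 (adjusted p = 4.50e-05).

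Many adhesion complex genes and lateral partners rose, where 13.2% of all genes did. Of 24 genes of adhesion complexes and outside-in signalling, 13 rose, 3 fell and 8 did not pass, with a median of 0.40. Focal adhesion kinase PTK2 had log2 values of 9.22, 9.27 and 8.85 on PMA arrays, against 6.70, 6.80 and 6.71 on unstimulated arrays (2.37 ± 0.13, adjusted p = 1.76e-05). The actin linkers PARVA (2.05 ± 0.11, adjusted p = 1.89e-05) and ENAH (1.95 ± 0.37, adjusted p = 0.0070) rose, and PARVG, a parvin of blood cells, fell by 0.99 ± 0.13 (adjusted p = 0.0012). Of 14 tetraspanins and lateral partners, 10 rose and 3 fell, with a median of 0.74. The number lower was 2 without PMA replicate 1 or 2 or any 1 of the unstimulated arrays. The urokinase receptor PLAUR, which associates with integrins at the cell surface, rose by 2.50 ± 0.21 (adjusted p = 0.00015), and the tetraspanins CD9 (2.08 ± 0.41, adjusted p = 0.0079) and CD53 (1.68 ± 0.17, adjusted p = 0.00033) rose. CD9 was 5.97 on unstimulated replicate 1 and 7.67 and 7.62 on the other unstimulated arrays. The leukocyte tetraspanin CD37 fell by 0.95 ± 0.12 (adjusted p = 0.00089). These counts describe lists chosen with results known, and no test of a list was made.

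**Figure D4:**
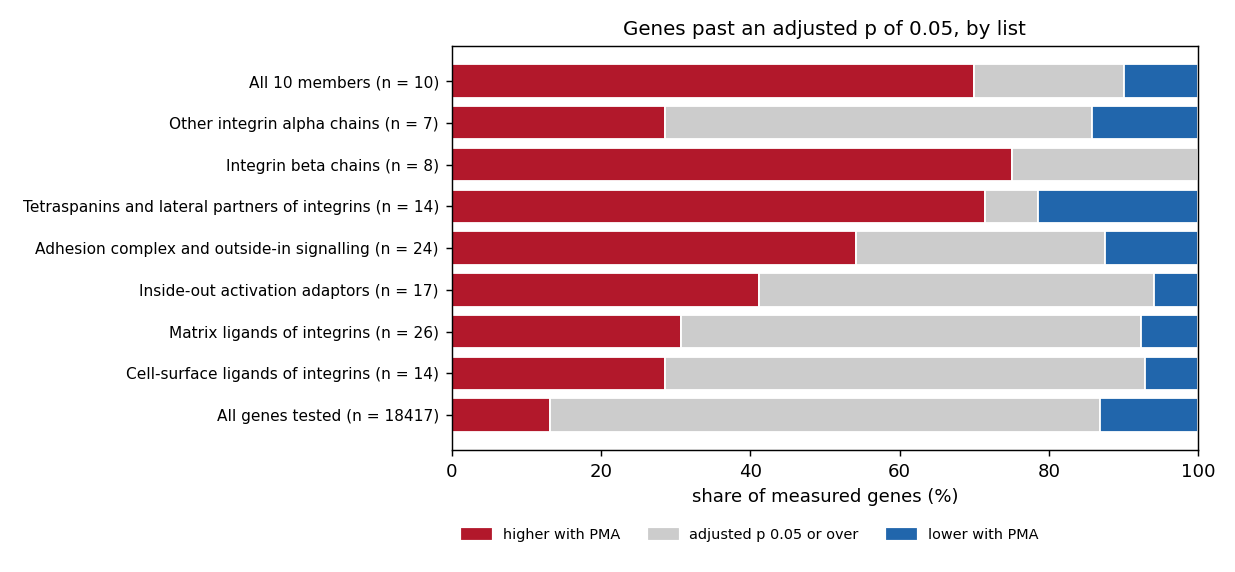
Share of measured genes (x axis, %) that were higher with PMA, lower with PMA or not called at an adjusted p of 0.05, for the members and each list of integrin genes (y axis, with the number measured), above the share over all 18417 genes tested. The 10 members hold 7 higher and 1 lower and the 8 beta chains 6 higher, where 13.2% of all genes were higher.

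Genes with the most similar change over the 6 arrays were found for ITGA3 and ITGAM by Euclidean distance, after centring each gene on its unstimulated mean, among the 4853 other genes called. GLIS3 (distance 0.61), CNIH3 (0.69) and GNG11 (0.85) were nearest to ITGA3, with log2 fold changes of 4.67, 4.79 and 4.59. CTTNBP2NL (0.15), H2BC12 (0.21) and TCF7L2 (0.24) were nearest to ITGAM, with 2.01, 1.99 and 1.91. The distances are descriptions over 6 arrays in 2 groups.

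Markers of other cell types that carry integrins were read beside the members. None of 8 T and NK cell markers passed in limma, and none lay under 0.05 before adjustment. None of 5 endothelial markers passed in limma, where KDR (0.81) lay under 0.05 before adjustment. Of 7 fibroblast markers 2 rose, PDGFRA (3.15 ± 0.36, adjusted p = 0.00063) and PDGFRB (0.52 ± 0.14, adjusted p = 0.032), and the collagens COL1A1, COL1A2 and COL3A1 did not pass. The summed linear level of the fibroblast list was 459 to 856 on PMA arrays and 306 to 321 on unstimulated arrays. Of 5 megakaryocyte markers, the chemokine PPBP rose (2.03 ± 0.40, adjusted p = 0.0077) and ITGA2B, GP9, GP1BA and PF4 did not pass, with a summed level of 252 to 366 on PMA arrays and 206 to 239 on unstimulated arrays. Of 4 B cell markers CD79A was lower (−0.36 ± 0.11, adjusted p = 0.0429), and of 5 epithelial markers KRT18 was (−0.84 ± 0.25, adjusted p = 0.0444), while EPCAM and CDH1 lay below the lower quartile on all 6 arrays. Leaving out 1 array ended the PDGFRB call for each array except PMA replicate 3, the CD79A call for each except unstimulated replicate 1, and the KRT18 call for each except those same 2 arrays (limma, adjusted p between 0.073 and 0.153). The part of other cell types in the members' values was not tested.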

How the data were processed

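Total RNA of THP-1 cells was labelled with biotin and hybridised to 6 single-channel Affymetrix arrays. The values were deposited by the authors on a log2 scale. RMA and Partek are named in the submitters' processing notes; versions and build were not given in the sources used. RMA makes array distributions alike, and changes of dim genes come out too small. Samples were grouped by their titles.

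Of 33297 probe sets, 19460 carried 1 symbol in the platform annotation, with symbols updated through gene IDs (19429 matched) in the RefSeq gene table. The brightest probe set by mean over 6 arrays stood for a gene, giving 18417 genes. The test was limma (version 3.58.1, R 4.3.3; lmFit and eBayes, group only, two-sided, Benjamini-Hochberg over all genes, threshold 0.05). The fit was tested on simulated data. No dim gene was removed. Summed linear levels add 2 to the power of the log2 values of a list.

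Members, lists and tests were chosen with earlier results of these data known. Named genes were all integrin chains, and per other list the 3 largest called changes in the main direction and 1 in the other. Replicate numbers were checked for pairing: deviations from group means correlated by 0.18, −0.02 and 0.05 for numbers 1 to 3, so the numbers were not taken to pair the arrays. Alternatives covered normalization, dim genes, probe set choice, the variance model, a replicate block, thresholds and each array left out. Figures used matplotlib 3.10.9.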

Additional observations from a re-analysis of the deposited data

Results flagged for a closer look

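ITGA1, the alpha chain of a collagen and laminin receptor, has no probe set of its own in this table, and the 1 probe set that names it also names PELO, so it stood outside the tested genes. That probe set had log2 values of 8.89, 9.10 and 7.92 on PMA arrays, against 6.60, 5.83 and 5.996 on unstimulated arrays, and it is given here because its signal lay above that of the unstimulated arrays in data the comparisons did not use. The mean difference, PMA minus unstimulated, was 2.50 (8.64 against 6.14). PELO, read by a probe set of its own, did not pass in limma (0.07 ± 0.13, adjusted p = 0.764). How much of the shared signal came from either gene was not tested.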

How the results depend on the processing

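Over the alternatives run, the log2 fold changes of all 10 members kept their sign. ITGA2, ITGA3, ITGA6, ITGAV and ITGAM passed under every one. ITGAE could not be tested when genes below the median gene were left out. The count of members higher was 7, and lay between 5 (test against a 1.5-fold change) and 8 (array quality weights, or without PMA replicate 3). The count lower was 1, and was 0 in the gene-wise model without shared variance and against a 1.5-fold change, 2 with PMA replicate 3 and unstimulated replicate 1 both left out (chosen after seeing the data), and 1 to 2 with single arrays left out. Calls were lost at an unchanged fold change for ITGAL (−1.10) and ITGAX (1.70) in the gene-wise model and against a 1.5-fold change, and for ITGA5 (1.18) in that last test. ITGAE was called with array quality weights (0.73) and without both arrays (0.89), and ran from 0.39 to 0.81 with single arrays left out. ITGA4 was called without both arrays (−0.65), and ran from −0.65 to −0.17. The matrix-binding median of 1.86 was 1.95 with arrays centred on their medians, 1.93 with cyclic loess, 1.81 with array weights, 1.81 without both arrays and 1.82 to 1.94 with single arrays left out. Its difference from the beta-2 partner median ran from −0.13 (without PMA replicate 3) through −0.08 (without unstimulated replicate 2) to 0.48 (without unstimulated replicate 1). The cause of these shifts was not tested. With 3 arrays per group, the check of deviations could not settle whether replicate numbers pair the arrays. Not every array correlated best with its own number. With the replicate block, 7 members were higher and 1 lower, and no member's call changed. Over all genes, 4854 passed (4726 with the block), against 2843 in the gene-wise model, 2824 at an adjusted p of 0.01 and 1125 against a 1.5-fold change. With 3 arrays per group, the median standard error of 0.115 limits what could be called.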

Other observations

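The measured genes next to the other members in the GRCh38.p14 gene table went several ways. Beside ITGA3, the homeobox gene DLX3 rose by 1.24 ± 0.25 (limma, adjusted p = 0.0088) and PDK2 did not pass (−0.01 ± 0.12). Beside ITGAV, FAM171B rose by 0.63 ± 0.10 (adjusted p = 0.0031) and ZC3H15 did not pass. Beside ITGA6, the pyruvate dehydrogenase kinase PDK1 fell by 1.06 ± 0.19 (adjusted p = 0.0054), beside ITGA5, GTSF1 fell by 0.82 ± 0.14 (adjusted p = 0.0034), and beside ITGA4, CERKL fell by 0.51 ± 0.10 (adjusted p = 0.0068). The neighbours of ITGA2, ITGAL and ITGAE did not pass.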
